A study of Macaca mulatta with 24 samples.

Results

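Transcripts of 9 genes that naive T cells use to enter lymph nodes, to leave them again and to persist were followed in whole blood of rhesus macaques before and after total body irradiation. The genes were CCR7, IL7R, TCF7, LEF1, CD27, CD28, S1PR1, KLF2 and FOXP1, chosen by symbol in the gene name column of the scanner output. Probes of that name were present for 8 of the 9 genes, 12 probes in all among 43603 on the array, and 7 genes with 11 probes were bright enough to be tested. The array named 15048 distinct genes.

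The blood came from 7 adult rhesus macaques (Macaca mulatta) of Chinese origin, 4 males and 3 females, for which the labels name no treatment other than irradiation. The 4 groups were 7 pre-irradiation samples (0 Gy) and 4, 6 and 7 samples taken 3, 5 and 7 days after a single 4 Gy exposure of the whole body. Samples of the same replicate number had the same labelled sex and deviated together, and they are read here as samples of 1 animal. The labels speak of 8 exposed animals, and the samples analysed here carry 7 replicate numbers. There was no unirradiated group beside them, so time and irradiation cannot be told apart. RNA was taken from whole blood in PAXgene tubes, depleted of globin transcripts and hybridized to one-colour (Cy3) Agilent arrays. The sample labels give X-rays and day 0 for the pre-irradiation blood, and the study's methods give 60Co gamma rays and blood drawn some days before exposure. The labels also name a rhesus array where the methods name a human one, and the array headers give a macaque build for the probes.

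A naive T cell circulates between blood and lymph nodes. CCR7 is the chemokine receptor that brings it into the node, S1PR1 is the lipid receptor through which it leaves, and KLF2 is the transcription factor that switches on S1PR1 and other trafficking genes. IL7R, the alpha chain of the interleukin-7 receptor, carries the survival signal of the resting cell, TCF7 and LEF1 are related transcription factors of the Wnt pathway that mark naive and memory-precursor T cells, CD27 and CD28 are costimulatory receptors, and FOXP1 is a transcription factor associated with quiescence. Several of these genes are also active in other blood cells, for example CD27 in memory B cells, FOXP1 in B cells and monocytes and KLF2 in many leukocytes. These examples are not a full list, so a lower level in whole blood is not by itself a change in naive T cells.

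The arrays lay on 6 slides and were scanned in 2 sessions. Session 1 held 6 of the 7 pre-irradiation and 6 of the 7 day 7 arrays, whereas all day 3 and day 5 arrays were in session 2 with pre-irradiation replicate 5 and day 7 replicate 5. Between 48.3 and 61.2% of probes on an array were well above background. Day 7 replicate 2 was the dimmest array, with a median processed signal of 16.7 against 30.9 to 106 on the others. None of the 288 spots of the 12 probes was saturated. The number of arrays limits the precision, and in whole blood a smaller number of naive T cells and less RNA per cell cannot be told apart.

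The probes are 60 bases long and read different places of a transcript, which matters for CCR7, IL7R and TCF7, the genes with more than 1 probe. The sequences below, copied from the scanner output and written 5′ to 3′, are shown so that the pairs of probes can be told apart. CCR7 probe 2 and TCF7 probe 2 are given whole, and the other lines give the last 30 bases. Capitals in the first line mark AATAAA, the signal after which a transcript is cut and polyadenylated. It was in 1 of the 12 probes and, in the printed strand, in 8.12% of the 43603 probes (11.3% on either strand).
CCR7 probe 1: tacccacacacgAATAAAgttttcccttga
CCR7 probe 2: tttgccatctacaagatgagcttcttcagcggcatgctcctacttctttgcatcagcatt
IL7R probe 1: atataggtgtacaatgtatgtaaccatctc
IL7R probe 2: cagactgaacttaccgtgagtgacaaagat
TCF7 probe 1: cacatattctagtgtaacactgcaagaagt
TCF7 probe 2: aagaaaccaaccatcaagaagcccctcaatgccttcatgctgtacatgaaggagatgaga

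The scanner output places CCR7 probe 1 at chr16:50670273-50670332 and CCR7 probe 2 at chr16:50671874-50671933, both on the minus strand, so that probe 1 lies 1542 bases downstream. IL7R probe 1 was placed at chr6:35630441-35630500 on the plus strand, 2983 bases downstream of IL7R probe 2. TCF7 probe 1 was placed at chr6:130553699-130553758 on the plus strand, 5260 bases downstream of TCF7 probe 2 and 1754 bases downstream of TCF7 probe 3. The header of every array names the rheMac2 build. The coordinates were not checked against a genome, which was not used here, and exons and untranslated regions were therefore not assigned. The 60 bases of TCF7 probe 3 and of the CD28 probe were spread over 1383 and 5439 bases. Probes are numbered by brightness, probe 1 stands for its gene, and levels are not compared between probes.

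The comparisons with blood drawn before exposure asked how far the levels of these genes in whole blood moved in the first week. At day 3 the levels of CCR7, IL7R, TCF7 and LEF1 fell, with log2 changes of −2.15, −1.97, −1.42 and −1.54, which is 4.42-, 3.92-, 2.68- and 2.91-fold lower than before irradiation (limma, adjusted p 0.0013, 9.9e-05, 0.0038 and 0.0035, 4 against 7 arrays). All 7 tested genes had a lower mean at day 3, and 4 of 7 passed the threshold of an adjusted p under 0.005, against 7.6% of the 10872 named genes tested that were called lower. At day 5 CCR7 and IL7R were called lower, 2 of 7 genes against 9.12% of all genes. At day 7 none of the 7 was called by limma, against 7.18% of all genes called lower, and 3 had an unadjusted p under 0.05. The median log2 change of the 7 genes was −1.42, −0.89 and −0.53 at days 3, 5 and 7, while that of all named genes was −0.0039, −0.0047 and −0.012.

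The 4 calls at day 3 were all lost under another background correction, normexp, which called 0.524% of all genes lower, and with the slide as a block, which called 1.39%. With normexp CCR7, IL7R, TCF7 and LEF1 gave −2.14, −1.94, −1.54 and −1.53 (adjusted p 0.0065, 0.018, 0.041 and 0.027), and with the slide block −2.14, −1.78, −1.39 and −1.85 (adjusted p 0.012, 0.0058, 0.093 and 0.016). The call at day 3 also rested on the animals to different degrees. The day 3 fit with the animal as a block kept only the 4 animals sampled in both groups, so it also held fewer arrays. In that fit IL7R alone passed at day 3 (log2 change −1.95, adjusted p 0.0040), and CCR7, TCF7 and LEF1 gave −2.08, −1.30 and −1.42 with adjusted p of 0.0075, 0.0086 and 0.010. IL7R passed with each of the 7 animals left out in turn (adjusted p 0.00015 to 0.0014), CCR7 was lost without replicate 4 or 7, TCF7 was lost without any of 6 of the animals, and LEF1 was lost without any one of the 7. At day 5 IL7R again passed without each animal in turn, and CCR7 was lost without replicate 4, 6 or 7 (adjusted p 0.0072, 0.0054 and 0.0056).

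**Figure D1:**
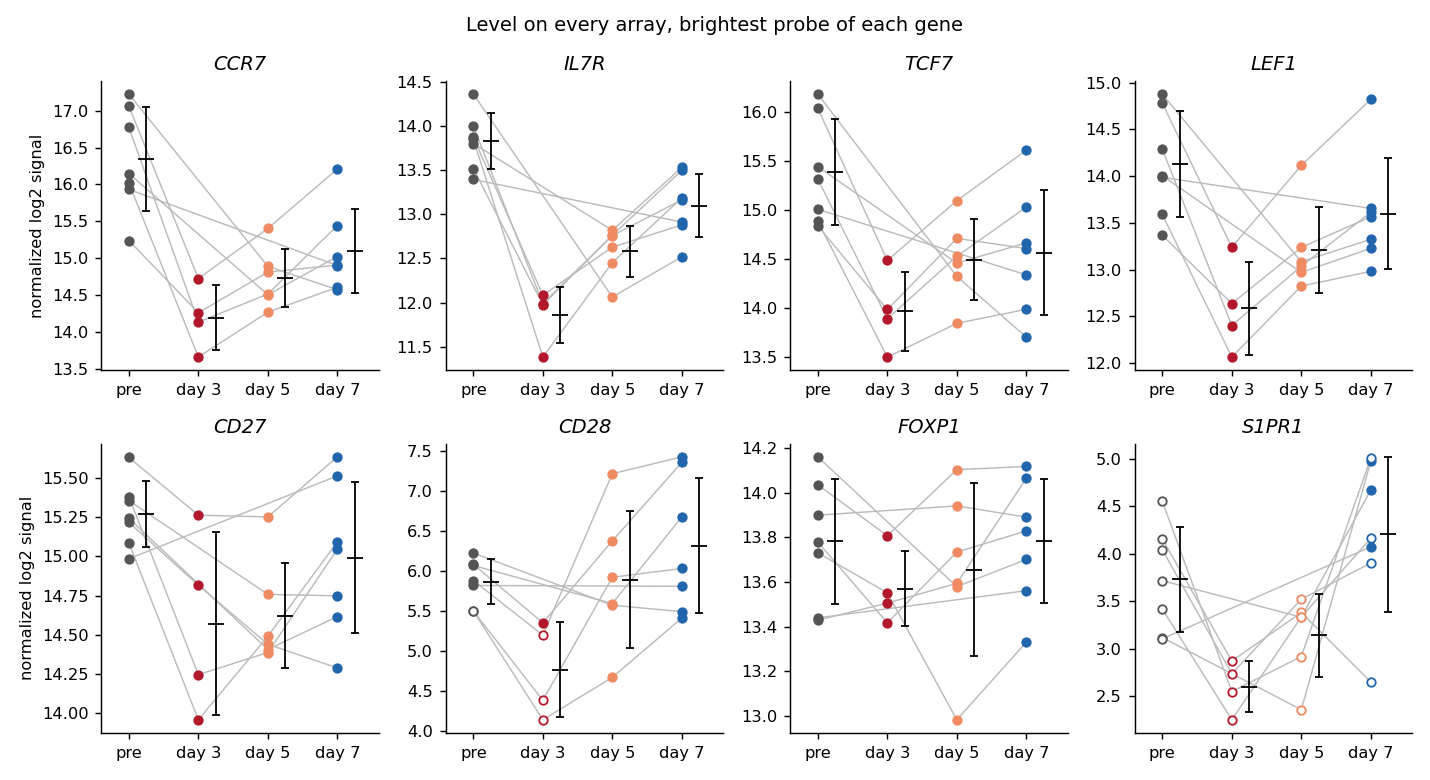
Normalized log2 signal (vertical axis) of the brightest probe of 8 genes on each of the 24 arrays by group (horizontal axis). Filled points were well above background and open points were not, grey lines join arrays of an animal, and the bars give mean and SD. CCR7, IL7R, TCF7, LEF1 and CD28 have all 4 day 3 arrays below all 7 pre-irradiation arrays, and every S1PR1 value except 3 at day 7 is open.

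CCR7, the lymph-node homing receptor, had pre-irradiation log2 levels from 15.24 to 17.22 with a median of 16.15. At day 3 the 4 arrays, replicates 1, 2, 4 and 7, read 14.26, 14.73, 14.14 and 13.66. At day 5 the lowest, median and highest of 6 arrays were 14.27, 14.66 and 15.40, and at day 7 those of 7 arrays were 14.57, 14.91 and 16.21. Every day 3 array lay below every pre-irradiation array. At day 5, 5 of 6 arrays and at day 7, 5 of 7 arrays lay below all pre-irradiation arrays, the exceptions being replicate 2 on both days and replicate 4 at day 7. The log2 change was −2.15 ± 0.36 (SE) on day 3, −1.61 ± 0.31 on day 5 (adjusted p 0.0013) and −1.25 ± 0.32 on day 7 (adjusted p 0.010). On this probe, the brighter of a pair, CCR7 was lower than before irradiation in 4 of 4, 6 of 6 and 7 of 7 animals, and on CCR7 probe 2 in 4 of 4, 4 of 6 and 4 of 7. Without day 7 replicate 2, the dim array, a setting chosen after seeing the data, CCR7 passed at day 7 (−1.43, adjusted p 0.0032).

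IL7R, the interleukin-7 receptor chain, read 13.39 to 14.36 before irradiation (median 13.85). The 4 day 3 arrays read 11.98, 11.99, 11.38 and 12.08. The 6 day 5 arrays read 12.06 to 12.82 (median 12.69), and the 7 day 7 arrays 12.52 to 13.53 (median 13.16). Of the 7 genes, IL7R alone stayed below its pre-irradiation range on every day 3 and every day 5 array, and at day 7, 2 of 7 arrays lay within that range. Its log2 change was −1.97 ± 0.21 on day 3, −1.25 ± 0.18 on day 5 (adjusted p 0.00016) and −0.73 ± 0.19 on day 7 (adjusted p 0.011), and it was lower in every animal at each day. On IL7R probe 2 every animal was lower at days 3 and 5, while 5 of 7 animals were lower at day 7. That probe overlapped with pre-irradiation at day 5, where 4 of 6 arrays lay below all pre-irradiation arrays.

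TCF7, a Wnt-pathway transcription factor, read 14.83 to 16.18 before irradiation (median 15.31) and 13.98, 14.48, 13.89 and 13.50 on the 4 day 3 arrays. Levels were 13.84 to 15.09 at day 5 (median 14.49) and 13.70 to 15.61 at day 7 (median 14.60). Day 3 did not overlap with the pre-irradiation arrays, and 5 of 6 day 5 and 5 of 7 day 7 arrays lay below all of them. The log2 changes at days 5 and 7, −0.89 ± 0.26 and −0.82 ± 0.30, had adjusted p of 0.016 and 0.053. On this probe TCF7 was lower than before irradiation in every animal at each of the 3 days, and on TCF7 probes 2 and 3 in every animal at days 3 and 5 and in 5 of 7 at day 7.

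LEF1, the partner of TCF7 in the same family, read 13.37 to 14.88 before irradiation (median 14.00) and 12.64, 13.24, 12.40 and 12.07 at day 3. Day 5 levels were 12.82 to 14.12 (median 13.06) and day 7 levels 12.98 to 14.82 (median 13.57). Again day 3 did not overlap with pre-irradiation, and the overlap grew with 1 of 6 arrays at day 5 and 4 of 7 at day 7. The changes at days 5 and 7 were −0.92 ± 0.28 (adjusted p 0.019) and −0.53 ± 0.29 (adjusted p 0.20). Animal 2 had the highest CCR7, TCF7 and LEF1 of all animals at days 3, 5 and 7, and the second highest before irradiation. FOXP1 was also highest in animal 2 at days 3, 5 and 7. The arrays of animal 2 were the dimmest of each of these days, and normalization raised them by 0.97, 1.27 and 2.03 on the log2 scale. Before that step the CCR7 signal of animal 2 was the lowest at days 3 and 7, so its rank there depends on the normalization.

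CD27, a costimulatory receptor of the tumour necrosis factor receptor family, read 14.99 to 15.63 before irradiation (median 15.24) and 14.24, 14.82, 13.96 and 15.26 at day 3. Its day 5 levels were 14.39 to 15.25 (median 14.46) and its day 7 levels 14.29 to 15.64 (median 15.05). Replicate 7 stayed within the pre-irradiation range at days 3 and 5, and every other array of these days lay below it. The log2 change was −0.70 ± 0.24 at day 3 (adjusted p 0.037), −0.65 ± 0.17 at day 5 (adjusted p 0.0084) and −0.28 ± 0.20 at day 7 (adjusted p 0.33), none of which passed 0.005. CD27 was lower in 4 of 4, 6 of 6 and 4 of 7 animals.

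CD28, the costimulatory receptor that binds CD80 and CD86, gave a dim signal. The log2 level was 5.50 to 6.23 before irradiation (median 5.88) and 4.39, 5.35, 5.20 and 4.14 at day 3, where 1 of 4 arrays was well above background. It was 4.67 to 7.22 at day 5 (median 5.76) and 5.41 to 7.43 at day 7 (median 6.03), with every array well above background. All 4 day 3 arrays lay below the pre-irradiation arrays, with a log2 change of −1.10 ± 0.25 and an adjusted p of 0.0066 by limma. Before irradiation 5 of 7 arrays were well above background, and the size of this change is uncertain because most day 3 values were not. The changes at day 5, 0.02 ± 0.32, and at day 7, 0.45 ± 0.32, had adjusted p of 0.96 and 0.32. From day 3 to day 7 CD28 differed by 1.55 ± 0.44 on the log2 scale (adjusted p 0.034), higher in 4 of 4 animals, and 3 of the 4 day 3 values in this difference were not well above background.

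FOXP1 read 13.43 to 14.16 before irradiation (median 13.78) and 13.51, 13.81, 13.55 and 13.42 at day 3. The groups overlapped at each day. The log2 changes were −0.21 (95% confidence interval −0.60 to 0.18), −0.13 (−0.54 to 0.28) and 0.0029 (−0.35 to 0.36) at days 3, 5 and 7, with adjusted p of 0.37, 0.64 and 0.99.

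S1PR1, the exit receptor, was well above background on 3 of 24 arrays, all at day 7, and was not tested. Its probe was placed at chr1:104305050-104305109 on the plus strand and is shown because its low signal leaves the exit receptor without a fold.
S1PR1 probe 1: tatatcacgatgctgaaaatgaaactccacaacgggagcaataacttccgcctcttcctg
The measured log2 levels, below or near background, before irradiation were 3.11 to 4.55. Those of days 3, 5 and 7 were 2.25 to 2.87, 2.36 to 3.52 and 2.65 to 5.01. KLF2 had no probe under that gene name. A probe outside the rule, under a transcript identifier, is described in the scanner output as Kruppel like factor 2, and it was looked up after the other values were known. Whether it also reads other genes of the Kruppel family was not tested.
Probe described as KLF2: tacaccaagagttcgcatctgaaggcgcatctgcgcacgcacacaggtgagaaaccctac
It read 12.10 to 12.99 before irradiation and 13.66, 13.15, 13.22 and 13.67 at day 3, above all pre-irradiation arrays. The log2 changes were 0.74 ± 0.20 (adjusted p 0.013), 0.54 ± 0.16 (adjusted p 0.018) and −0.03 ± 0.20 (adjusted p 0.94), so this probe did not pass the threshold at any day.

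Counted over probes, 11 of 11 had a lower mean at day 3, 10 of 11 at day 5 and 9 of 11 at day 7, and 7, 2 and 0 were called, against 8.05, 9.59 and 7.28% of all tested probes called lower. Over genes, 5 of 7 at day 3, 1 at day 5 and 0 at day 7 had all arrays below all pre-irradiation arrays, against 12.1, 8.31 and 6% of the named genes. CD28, dim at day 3, is 1 of the 5. The second CCR7 probe gave log2 changes of −1.97 ± 0.42 at day 3 (adjusted p 0.0046), −1.08 ± 0.34 at day 5 (adjusted p 0.023) and −0.69 ± 0.41 at day 7 (adjusted p 0.23). The second IL7R probe gave −1.67 ± 0.26 (adjusted p 0.00084), −0.82 ± 0.25 (adjusted p 0.020) and −0.37 ± 0.19 (adjusted p 0.16). At day 3 TCF7 probes 2 and 3 gave −1.20 ± 0.34 (adjusted p 0.018) and −1.55 ± 0.30 (adjusted p 0.0024). The mean changes of a gene's probes shared their direction at every day, with intervals that overlap. Within animals the CCR7 probes parted in some cases, probe 2 being higher than before irradiation in 2 of 6 animals at day 5 and 3 of 7 at day 7, where probe 1 was lower in all. Day 7 replicate 3 had the lowest CCR7 probe 1 level of that day, 14.57, and the highest CCR7 probe 2 level, 8.39.

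**Figure D2:**
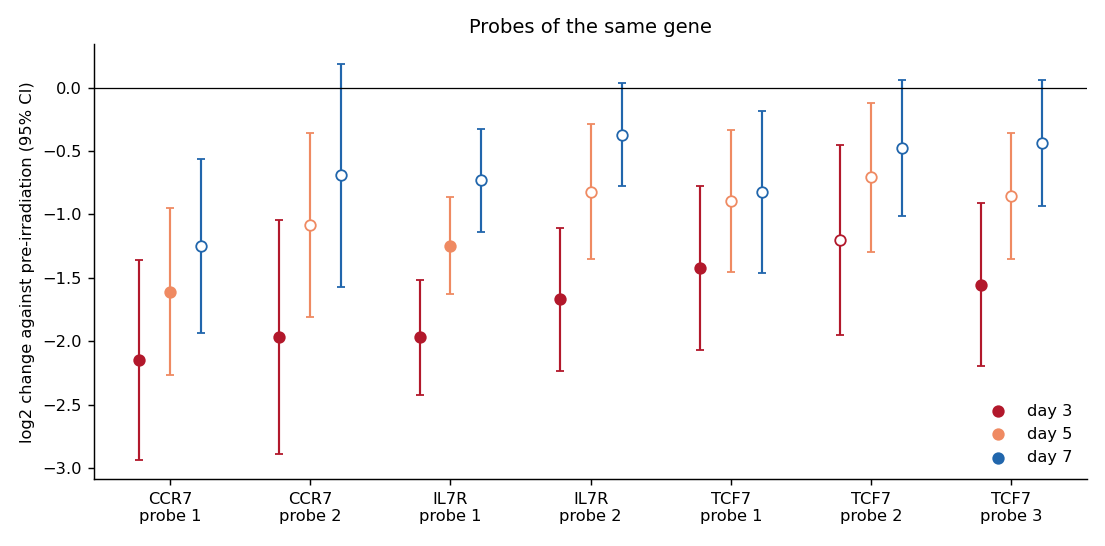
Log2 change against pre-irradiation (vertical axis, points) with 95% confidence interval for each probe of CCR7, IL7R and TCF7 (horizontal axis) at days 3, 5 and 7. Filled points passed an adjusted p under 0.005, and all 21 points lie below 0, with day 3 lowest for each probe.

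The 4 animals of replicates 1, 2, 4 and 7 were sampled at all times and allowed the course to be read within an animal. CCR7, IL7R, TCF7, LEF1 and CD28 were each lowest at day 3 in 4 of 4 of these animals, CD28 with 1 of its 4 day 3 values well above background, and CCR7, IL7R, TCF7 and LEF1 were each higher at day 5 than at day 3 in 4 of 4, by medians of 0.58, 0.78, 0.62 and 0.70 on the log2 scale. With the slide as a block the difference of day 5 from day 3 turned to −0.11, −0.084 and −0.041 for CCR7, TCF7 and LEF1. Slide 4 alone held both days, with day 3 replicates 1 and 2 (male) and day 5 replicates 6 and 7 (female). That fit therefore compared different animals, and it does not show whether the order of these days depends on the slides. From day 5 to day 7 IL7R and LEF1 were higher in 6 of 6 animals, by medians of 0.58 and 0.29. None of the 7 genes passed in the comparison of day 5 with day 3, of day 7 with day 3 or of day 7 with day 5 by limma, where 2, 4 and 1 had an unadjusted p under 0.05. Of all genes, 0.368% were called higher at day 7 than at day 3, and 0% in the other two comparisons. The nearest was IL7R, 1.24 ± 0.23 higher at day 7 than at day 3 (adjusted p 0.0074). The order of the group means, day 3 lowest, then day 5, day 7 and pre-irradiation, held for CCR7, IL7R, TCF7, LEF1 and CD27, and neighbouring days in that order did not differ beyond the threshold.

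Day 3 and day 5 were scanned apart from 6 of the 7 pre-irradiation arrays, so the scan session and these days can only partly be separated. With the session as a block, in which pre-irradiation replicate 5 alone links the days to pre-irradiation, the day 3 changes of CCR7, IL7R, TCF7 and LEF1 were −1.74 ± 0.66, −1.54 ± 0.35, −1.04 ± 0.53 and −1.40 ± 0.59, none called (adjusted p 0.16, 0.043, 0.29 and 0.20). At day 5 CCR7 and IL7R gave −1.20 ± 0.60 and −0.81 ± 0.33. Within slide 6, the only slide with day 3 and pre-irradiation arrays, the 2 day 3 arrays differed from the pre-irradiation array by −2.03, −1.66, −1.31 and −1.75 for CCR7, IL7R, TCF7 and LEF1 in the mean. The day 7 comparison was balanced over the sessions. In session 1 alone, CCR7 was −1.28 ± 0.37 (adjusted p 0.024) and IL7R −0.77 ± 0.21 (adjusted p 0.017), and the mean day 7 difference of CCR7 was negative on each of the 4 slides that held both groups, from −1.75 to −0.73.

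**Figure D3:**
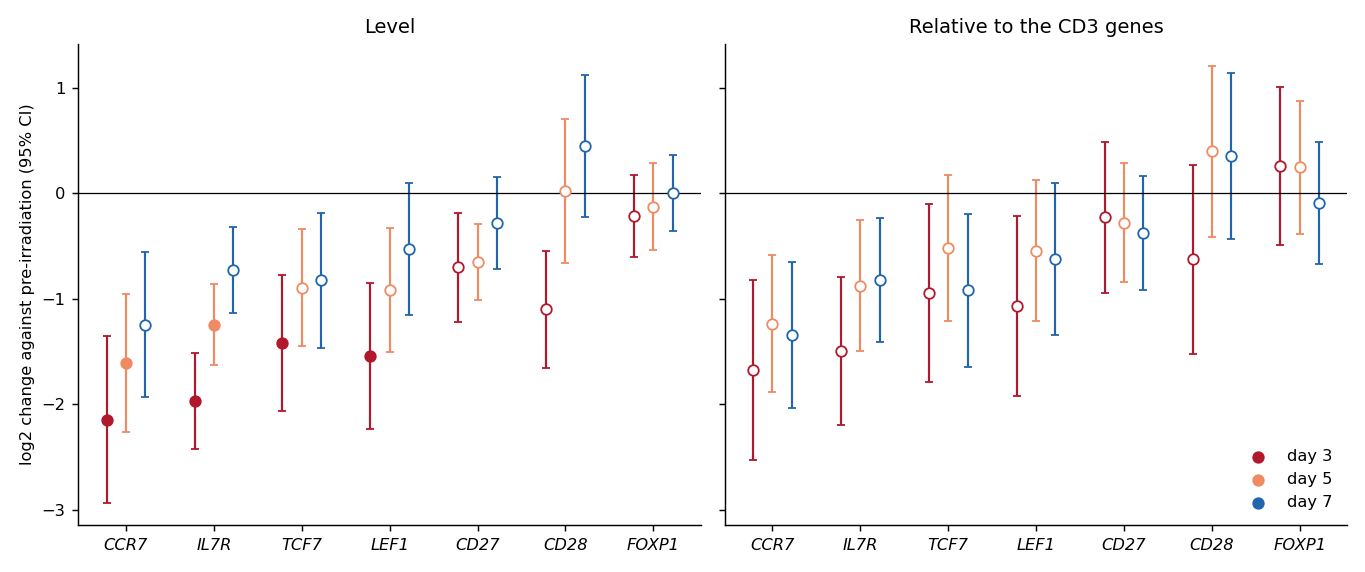
Log2 change against pre-irradiation with 95% confidence interval (vertical axis) of the 7 tested genes (horizontal axis) at days 3, 5 and 7, as levels (left) and relative to the mean of the CD3 genes on the same array (right). Filled points passed an adjusted p under 0.005. The 6 filled points are all levels, and relative to the CD3 genes no gene passed while the CCR7 and IL7R intervals stay below 0 at each day.

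Transcripts that mark blood cell types shifted as well. These are transcript levels, and cells were not counted here. Genes that define T cells, such as the CD3 chains, CD2, CD5, LCK and CD8A, were present at all times, and 12 of 15 had a probe. Their mean log2 level ran from 11.84 to 12.44 on the pre-irradiation arrays, and from 11.34 to 12.16, 11.80 to 12.22 and 12.13 to 12.64 on days 3, 5 and 7. At day 3, 3 of 4 arrays lay below all pre-irradiation arrays. Of the 12 genes, 1, CD8B (−1.71 ± 0.37 at day 3, adjusted p 0.0048, and 0.0064 with the animal as a block), was called at any day. Over the same arrays the mean of the 7 genes studied here ran from 13.04 to 14.03, 12.02 to 12.63, 12.46 to 13.18 and 12.75 to 13.70. Of 10 tested B-cell genes, 9 were called lower at each day, with median log2 changes of −2.91, −3.18 and −3.15, and MS4A1 (CD20), a defining marker, had log2 changes of −3.76, −4.31 and −4.32. Of 9 platelet genes, 9 were called higher at day 3, 2 at day 5 and 0 at day 7. Of 8 red cell genes, 7, 8 and 7 were called lower, and 3 of 9 monocyte genes were called higher at days 3 and 5 and 1 at day 7. Of 10 neutrophil genes 1 was called higher at each day, and their mean differed from pre-irradiation by 0.74, 0.67 and 1.03 on the log2 scale. Of 6 genes known from endothelium, 3 were called higher at day 3 and 0 later, among them VWF, which platelets also carry (3.04). Of 16 genes of cytotoxic cells, 1, 2 and 0 were called higher and 1, 0 and 0 lower, with CX3CR1 at 1.78 (adjusted p 0.0017, and 0.016 with the animal as a block) and GZMK at −1.93 (adjusted p 0.0041 and 0.0043) at day 3. With each of the 7 animals left out in turn, the day 3 call of CX3CR1 was lost in 2 fits and that of GZMK in 6. The part of these shifts in the changes of the naive T-cell genes was not tested.

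**Figure D4:**
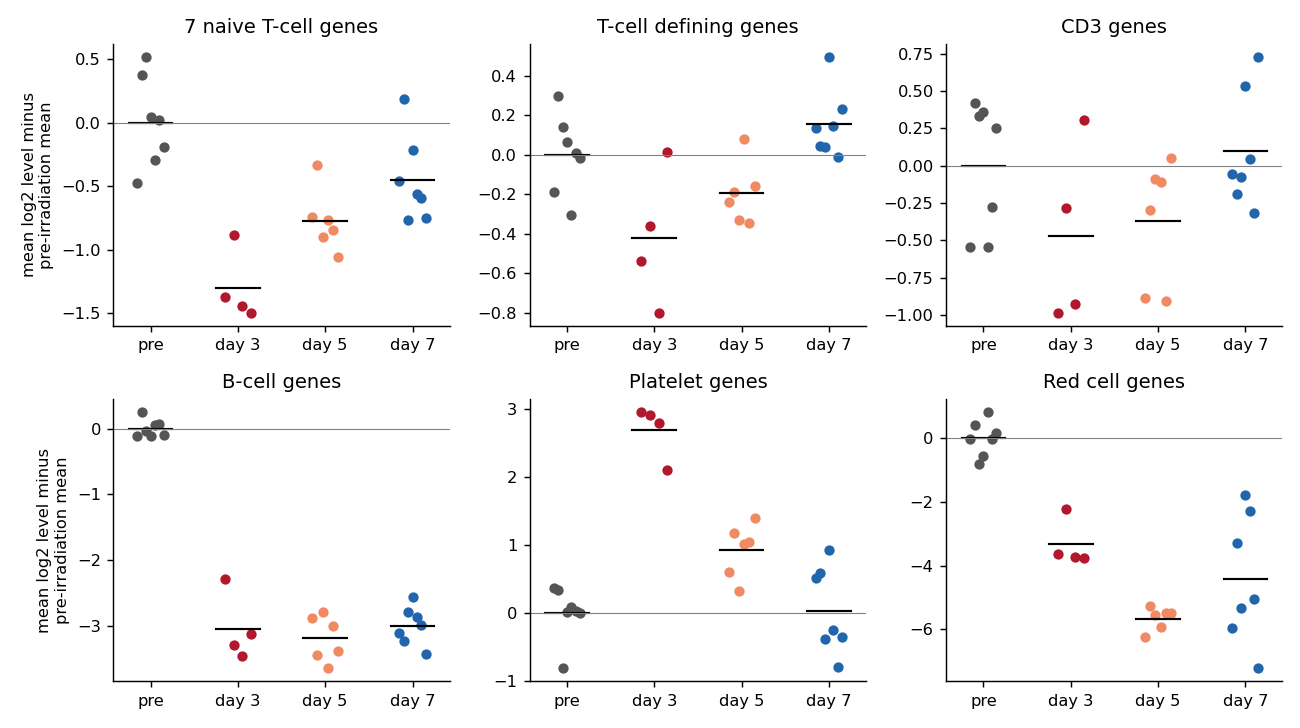
Mean log2 level of each gene group on each array minus its pre-irradiation mean (vertical axis, points are arrays, bars are group means) by day (horizontal axis), for 6 gene groups. The day 3 points of the 7 naive T-cell genes lie below all pre-irradiation points, the T-cell defining genes and CD3 genes overlap at every day, and the mean of the B-cell genes differs by −3.04, −3.19 and −3.00 log2 units on days 3, 5 and 7. Platelet genes are highest at day 3 and red cell genes lowest at day 5.

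To set the genes against other T-cell transcripts of the same blood, their levels were taken relative to the mean of CD3D, CD3G and CD247 on the same array, CD3E having no probe under that name. This reference is a transcript level and not a count of T cells. The mean of the CD3 genes moved by −0.47, −0.37 and 0.094 on days 3, 5 and 7, and none of the 3 was called. Relative to them CCR7 gave −1.67 (95% confidence interval −2.52 to −0.82, adjusted p 0.014) at day 3, −1.24 (−1.88 to −0.59, adjusted p 0.0093) at day 5 and −1.34 (−2.03 to −0.65, adjusted p 0.011) at day 7. IL7R gave −1.50 (−2.20 to −0.79, adjusted p 0.0091), −0.87 (−1.49 to −0.26, adjusted p 0.039) and −0.82 (−1.41 to −0.23, adjusted p 0.062). LEF1 was at −1.07 and TCF7 at −0.95 at day 3, with adjusted p of 0.080 and 0.11. By limma none of the 7 genes passed 0.005 relative to the CD3 genes at any day, where 4, 2 and 3 had an unadjusted p under 0.05, and 0.865, 2.54 and 4.03% of all genes were called lower. With CD2, CD5, CD6 and TRAT1 as the reference instead, 1, 2 and 2 of the 7 genes passed, against 1.55, 6.26 and 10.6% of all genes called lower.

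Partners of the 9 genes, from lists written with earlier results of these data known, did not follow one direction. Their levels are those of whole blood, and the cells behind each change were not identified. Of all named genes, 5.98, 6.24 and 2.67% were called higher on days 3, 5 and 7. Among 17 tested genes of homing and exit, 4, 2 and 1 were called higher on days 3, 5 and 7 and 0, 0 and 1 lower. ITGB2, the beta chain of the integrin LFA-1, rose by 1.46 ± 0.16, 0.95 ± 0.13 and 0.74 ± 0.15 (adjusted p 0.00011, 0.00010 and 0.0023). GRK6, a kinase that desensitizes chemokine receptors, rose by 1.11 ± 0.23 and 0.86 ± 0.17 at days 3 and 5 (adjusted p 0.0041 and 0.0016), and the arrestin gene ARRB1 by 1.03 ± 0.17 at day 3 (adjusted p 0.0011). The fourth gene called at day 3, named after its value was seen, was GNAI2, a G protein subunit of chemokine receptors, at 0.87. The gene called lower at day 7 was CCL21, a ligand of CCR7 (adjusted p 0.0038). It was well above background on 4 of 7 arrays before irradiation and 2 of 7 at day 7, so the size of its difference is not given. FOXO1, the transcription factor upstream of KLF2 and IL7R, gave −0.13, −0.27 and −0.17 (adjusted p 0.66, 0.32 and 0.58).

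Of 12 tested genes of the interleukin-7 receptor pathway, 1, 3 and 2 were called higher and 0, 1 and 1 lower. CISH, a feedback inhibitor induced by STAT5, rose by 1.63 ± 0.20, 1.93 ± 0.20 and 1.39 ± 0.27 (adjusted p 0.00026, 1.1e-05 and 0.0015). STAT5A, named after its value was seen, rose by 0.77 at day 5. BCL2, the survival factor, rose by 1.06 ± 0.25 at day 5 (adjusted p 0.0049) and JAK1, the kinase that binds IL7R, by 1.10 ± 0.25 at day 7 (adjusted p 0.0046). CRLF2, which pairs with IL7R in the TSLP receptor, fell by 1.81 ± 0.29 at day 5 (adjusted p 0.00041) and fell by 1.95 ± 0.27 at day 7 (adjusted p 0.00013). CRLF2 was well above background on 7 of 7 arrays before irradiation, 4 of 6 at day 5 and 5 of 7 at day 7. IL2RG, the common chain that pairs with IL7R for interleukin-7, gave 0.01 ± 0.17, −0.03 ± 0.16 and −0.10 ± 0.15, and the cytokine IL7 itself 0.48, 0.43 and 0.20 (adjusted p 0.083, 0.10 and 0.50).

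Of 20 tested partners of TCF7 and LEF1 and other T-cell factors, 3 were called higher and 2 lower on day 3, 3 and 1 on day 5, and 0 and 1 on day 7. KLF4 rose by 2.32 ± 0.26 and 1.60 ± 0.27 at days 3 and 5 (adjusted p 0.00013 and 0.00051). KLF7, of the same Kruppel family, was called higher on these days (adjusted p 0.0013 and 0.00049), but it was well above background on 1 of 7 arrays before irradiation and on all 17 later arrays, so the size of its difference is not given. TOB1, an antiproliferative factor, rose by 1.28 ± 0.27 at day 3 (adjusted p 0.0044) and by 1.04 at day 5. The day 3 genes called lower, named after their values were seen, were GATA3 and BTG1, both at −0.72. TLE1, a corepressor that TCF7 and LEF1 bind, fell by 1.69 ± 0.32 at day 5 (adjusted p 0.0013) and fell by 2.08 ± 0.23 at day 7 (adjusted p 2.3e-05). BACH2 gave −1.20 ± 0.27, −0.41 ± 0.24 and −0.95 ± 0.25 (adjusted p 0.0052, 0.20 and 0.011).

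Among 20 tested ligands and signalling genes of CD27 and CD28, 2, 1 and 1 were called higher and 3, 1 and 0 lower. ICOS, a receptor related to CD28, fell by 2.05 ± 0.31 at day 3 (adjusted p 0.00097), TRAF3 changed by −1.38 ± 0.20 and −1.07 ± 0.19 at days 3 and 5 (adjusted p 0.00054 and 0.00088) and SIVA1, which binds the tail of CD27, fell by 1.04 ± 0.20 at day 3 (adjusted p 0.0023). VAV1 rose by 0.85 ± 0.13 at day 5 (adjusted p 0.00029). The day 3 genes called higher, named after their values were seen, were VAV1 (0.73) and AKT1 (0.72). CD70, the ligand of CD27, was well above background on 0 of 7 arrays before irradiation and on 6 of 7 at day 7, and was at least 3.05-fold higher at day 7 (adjusted p 0.00022). The bound sets its mean level at day 7 against the lowest signal called well above background on each pre-irradiation array, or the probe's own where that was higher. The 14 tested genes of a wider naive T-cell signature gave 1 higher and 1 lower on day 3, 1 and 3 on day 5 and 0 and 0 on day 7, with medians of −0.39, −0.10 and 0.07. LDHB changed by −1.07 ± 0.18 and −0.96 ± 0.17 at days 3 and 5 (adjusted p 0.0012 and 0.00078). NOSIP fell by 0.88 ± 0.17 at day 5 (adjusted p 0.0016), and SERINC5 rose by 0.79 ± 0.16 at day 3 (adjusted p 0.0036) and by 0.74 at day 5. The third of the day 5 genes counted as lower, FHIT, was well above background on 1 of 7 arrays before irradiation and 1 of 6 at day 5, and its sign turned with normexp (0.80), so its values give no direction.

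With the animal as a block, the day 3 calls of ITGB2, GRK6, ARRB1, CISH, KLF4, KLF7, TOB1, ICOS, TRAF3, SIVA1, LDHB and SERINC5 had adjusted p from 0.0053 to 0.035 and did not pass. The same held for GRK6 and CRLF2 at day 5 (adjusted p 0.0065 and 0.0066) and for CCL21, ITGB2 and JAK1 at day 7 (0.0057, 0.0071 and 0.0082). The genes named after their values were seen lost their calls as well, GNAI2, GATA3, BTG1, VAV1 and AKT1 at day 3 (adjusted p 0.0022 to 0.0046 in the fit without the block and 0.028 to 0.056 with it) and STAT5A at day 5 (0.0020 and 0.0086), and so did TOB1 and SERINC5 at day 5 (0.0061 and 0.0071 with the block). With each of the 7 animals left out in turn, GATA3 and BTG1 lost the call in 7 of 7 fits, GNAI2 and VAV1 in 6, AKT1 and day 5 TOB1 in 5, STAT5A in 4 and day 5 SERINC5 in 3. In the same fits the day 7 call of JAK1 and the day 5 call of FHIT were lost in 7 of 7 fits (adjusted p up to 0.022 and 0.0096). The calls of CCL21 and ITGB2 at day 7 and of CD8B, GRK6, SERINC5 and TOB1 at day 3 were lost in 6, and that of BCL2 at day 5 in 5 (adjusted p up to 0.020). Those of NOSIP at day 5, CISH at day 7 and SIVA1 at day 3 were lost in 4, those of ARRB1, ICOS, KLF7 and LDHB at day 3 and GRK6 at day 5 in 3, those of TLE1 and TRAF3 at day 5 in 2, and that of TRAF3 at day 3 in 1.

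**Figure D5:**
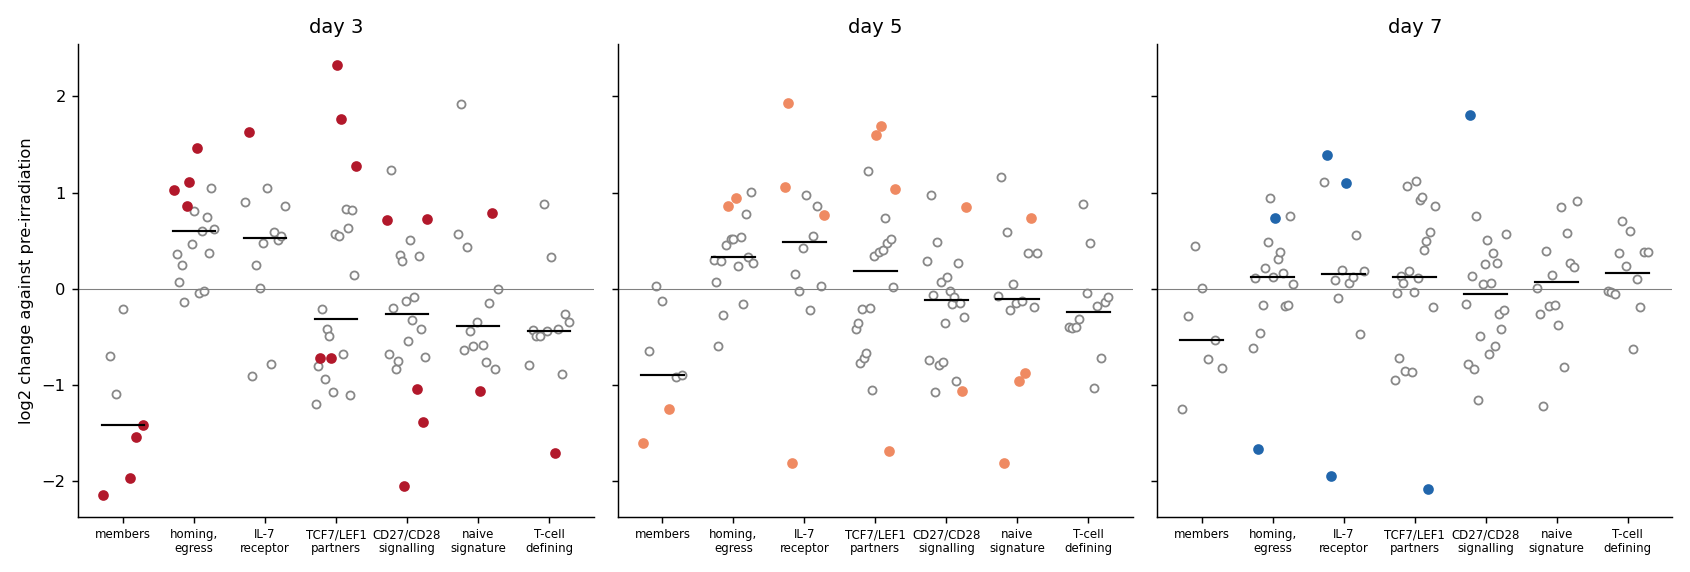
Log2 change against pre-irradiation (vertical axis) of each tested gene in 7 lists (horizontal axis) at days 3, 5 and 7, with filled points for an adjusted p under 0.005 and bars for list medians. The 7 naive T-cell genes have the lowest median of the 7 lists at each day, −1.42, −0.89 and −0.53, and the partner lists hold called genes on both sides of 0.

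Males and females were compared in their day 7 change, the only day with enough arrays of both. None of the 7 genes differed by limma at an adjusted p of 0.05, and 1 had an unadjusted p under 0.05. Of all genes 0% were called in either direction, so the absence of a call says nothing particular about the 7. The gene with an unadjusted p under 0.05 was CD28, which was higher at day 7 in 4 of 4 males (0.53 to 1.54) and lower in 3 of 3 females (−0.73 to −0.01), a difference of −1.27 ± 0.46 in females minus males (adjusted p 0.48). CCR7 was lower in all 4 males and all 3 females, with mean changes of −1.29 and −1.19.

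The 7 genes did not vary together as 1 block. After subtraction of group means, over the 24 arrays of 7 animals, CCR7, TCF7 and LEF1 had Pearson correlations of 0.88 to 0.93 with each other, those of CCR7 with IL7R and CD27 were 0.54 and −0.38, and that of CD27 with CD28 was −0.52. These are descriptions over arrays that share animals. The genes whose levels over the 24 arrays were most like the mean of the 7 were RETREG1, SLAIN1, PRPSAP1, DIEXF and PDE7A, with r from 0.91 to 0.94. Taken gene by gene, the nearest were PMEPA1 for CCR7 (0.93), STRBP for IL7R (0.96), RETREG1 for TCF7 (0.90), ITGA6 for LEF1 (0.94), FAIM for CD27 (0.85), PHGDH for CD28 (0.92) and AMIGO1 for FOXP1 (0.82).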

How the data were processed

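Deposited scanner files from Agilent Feature Extraction (10.7 per the labels, 12.0.2.2 per the file headers) hold the processed signal, a linear intensity after background correction. The authors' deposited value table holds log2 of that intensity shifted array by array (column medians 7.37 to 7.70), and served as an alternative. Here log2 processed signals, without spots marked as outliers, were averaged per probe, and arrays were aligned to the one of middle brightness by the median of their probe differences. A filter kept 27133 probes (well above background on 4 or more of 24 arrays), which were tested by limma 3.58.1 in R 4.3.3, two-sided, with Benjamini-Hochberg adjustment over those probes and a threshold of 0.005 (0.05 for the sexes). Symbols came from the gene name column or RefSeq accessions. Genes outside the 9 were named when among the 3 largest called changes of their list and day, plus IL2RG, IL7, BACH2, SATB1 and FOXO1, and 1 gene that is not reported here. GNAI2, STAT5A, GATA3, BTG1, AKT1, VAV1 at day 3, TOB1 and SERINC5 at day 5, and some cell-type markers were named outside this rule. SATB1 was not tested. Likeness was ranked by Pearson r. Members and lists were chosen with earlier results of these data known. The model was tested on simulated data. Python 3.11.15, pandas 2.3.3 and matplotlib 3.10.9 made tables and figures. Residuals of arrays with the same replicate number correlated (r 0.13 to 0.41, 0.17 to 0.45 and 0.13 to 0.44 for days 3, 5 and 7), so the number was also fitted as a block, over the numbers present in both groups. Other alternatives covered normalization, background, filters, variance model, slide, scan session, reference genes, threshold and each animal left out. Nothing in the sources used here tells which samples shared an RNA extraction, and p-values measure the spread between these samples.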

Additional observations from a re-analysis of the deposited data

Results flagged for a closer look

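Of 28 groups of levels tested for a sample far from the others, 3 held one, and chance gives such a sample in about 1 of 20 groups. IL7R on day 3 replicate 4 was 11.38, the lowest of 4 arrays that otherwise read 11.98 to 12.08. LEF1 on day 5 replicate 2 was 14.12, above 5 arrays at 12.82 to 13.24. LEF1 on day 7 replicate 2 was 14.82, above 6 arrays at 12.98 to 13.66. Both LEF1 values came from the same animal number, on the dimmest array of each day.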

How the results depend on the processing

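The count of genes called lower at day 3, 4 of 7, was 0 with normexp background correction, with the slide as a block and with the scan session as a block, 1 with the replicate block and 2 with no filter on dim probes. At day 5 the count of 2 became 1 with quantile normalization and with normexp, 0 with the slide or the session as a block, and 5 at an adjusted p under 0.05. At day 7 the count of 0 became 2 in 1 fit over all 24 arrays and at 0.05, and 1 with the slide as a block or without day 7 replicate 2, the last chosen after seeing the data. From day 3 to day 7 the count of 0 became 1 with quantile normalization, with an intensity trend and in 1 fit over all arrays, and 2 at 0.05. Relative to the CD3 genes, the count of 0 at day 3 became 1 with an intensity trend, in 1 fit and against CD2, CD5, CD6 and TRAT1, and 2 at 0.05. At day 5 it became 1 with the trend and 2 against those genes and at 0.05, and at day 7 it became 1 with the trend, without day 7 replicate 2 and at 0.05, and 2 against those genes. With each animal left out, the counts ran from 1 to 3 on day 3 and from 1 to 2 on day 5, stayed at 0 on day 7, and ran from 0 to 1 relative to the CD3 genes on day 7. The replicate block, in which the numbers pair the samples, changed no other count of genes called. Among called partner and marker genes, 423 values under an alternative kept direction and call, 213 lost the call and 1, FHIT, changed sign. Shares of all genes called are given above for normexp and the slide block at day 3 and for the CD2, CD5, CD6 and TRAT1 reference, and not for the other settings. Whether a count moved with the calls over all genes was not tested there, and neither was the cause of these shifts.

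Values that changed sign were as follows. FOXP1 at day 3 was 0.13 with the session block. At day 5 FOXP1 was 0.059 with quantile normalization, 0.17 with no filter, 0.17 with the slide block and 0.22 with the session block, and relative to CD3 it was −0.026 with the slide block and −0.087 against the other T-cell genes. At day 7 FOXP1 was −0.017 in session 1 alone and −0.052 without day 7 replicate 2, and it ran from −0.10 to 0.080 with an animal left out. CD28 at day 5 was −0.0542 with quantile normalization and −0.67 with the slide block, and ran from −0.24 to 0.21 with an animal left out. CD28 relative to CD3 was 0.33 at day 3 with normexp, −0.86 and −0.10 at day 5 with the slide and session blocks, and −0.0336 and −0.18 at day 7 with quantile normalization and normexp. CD27 at day 7 was 0.26 with quantile normalization. Between days 3 and 5 the slide block gave −0.11 for CCR7, −0.084 for TCF7 and −0.041 for LEF1, normexp gave −0.56 for CD27 and −0.40 for FOXP1, and CD27 ran from −0.13 to 0.17 with an animal left out. Between days 3 and 7 FOXP1 was −0.0093 with the session block. Between days 5 and 7 TCF7 was −0.15 with the session block and −0.11 without day 7 replicate 2, running from −0.0012 to 0.18 with an animal left out, CD28 was −0.43 with normexp and −0.083 with the session block, and FOXP1 was −0.16 and −0.095 with the slide and session blocks. FHIT at day 5 was 0.80 with normexp. Signal near background limits CD28, S1PR1, FHIT, CRLF2, CCL21, CD70, KLF7, CCR7 probe 2 and TCF7 probe 3.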
